A study of Mus musculus with 4 samples.

Results

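The nuclear genes for the mitochondrial protein import machinery were examined in the hippocampus of mice 1 day after a tibial fracture operation. The members are the protein-coding genes whose symbol is Timm or Tomm followed by a digit, which gave 15 TIM genes of the inner membrane and intermembrane space and 9 TOM genes, named for the outer membrane translocase, 24 of the 17823 protein-coding genes and of the 29300 genes in the table. Poly(A)-selected RNA of 2 control and 2 surgery mice was sequenced, all of them male C57BL/6 mice aged 7 to 8 months. Control mice, labelled sham, received isoflurane and the analgesic tramadol without an operation, and surgery mice received the same drugs and an open tibial fracture with a nail in the bone, which serves as a model of perioperative neurocognitive disorder. Anesthesia and analgesia are therefore shared by both groups, and the groups differ by the operation, with 1 mouse to a library.

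Nearly all mitochondrial proteins are encoded in the nucleus, made in the cytosol and carried into the organelle. The TOM complex of the outer membrane recognises them with its receptors and passes them through a channel, and from there small TIM chaperones escort membrane proteins across the intermembrane space, while TIM23 threads proteins with a cleavable presequence into the matrix and TIM22 inserts carrier proteins into the inner membrane. In neurons, as in other cells, most subunits of the respiratory chain and the metabolite carriers of the inner membrane reach the organelle in this way.

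The libraries held 15763432 to 18573386 counts, and 24238 to 25324 genes were detected in each. Excitatory neuron markers summed to 8141 and 7902 CPM (counts scaled to a common library size) in the control mice and to 6869 and 6687 CPM in the surgery mice, with 2 of 8 called higher and 4 of 8 called lower. Of 6 astrocyte markers 3 were called higher and 1 lower, and of 6 endothelial markers 2 were called higher, with endothelial sums of 212 and 221 CPM in controls and 232 and 310 CPM after surgery. Of 6 microglia markers 1 was called higher, and of 4 neutrophil markers tested 1 was called lower. Oligodendrocyte markers, none called, summed to 6183 and 5329 CPM in controls, against 6084 and 3927 CPM after surgery. Choroid plexus markers differed between mice of the same group, at 127 and 5407 CPM in the control mice and at 2031 and 3452 CPM in the surgery mice. Transcripts of the mitochondrial genome other than ribosomal RNA made up 2.82% and 2.53% of counts in controls, against 4.45% and 4.49% after surgery. In bulk tissue, fewer cells of a type and less RNA per cell cannot be told apart. All 8 calls of import genes given here held when genes of the mitochondrial genome were left out, and the part of the marker shifts in the results was not tested.

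Of the 24 genes, 22 had enough counts to be tested, 14 TIM and 8 TOM. A gene was called at an adjusted p under 0.05 in edgeR, with the adjustment taken over all 17144 genes tested. Of the 22, 6 were called lower and 2 higher in the surgery mice, where 12.8% of all genes tested were called lower and 13.1% were called higher. The genes that fell were Timm13, Timm8b and Timm10 among the small TIM chaperones and Tomm7, Tomm40l and Tomm40 of the outer membrane, with changes of -28.3% to -37.4%. The genes that rose were the small chaperone Timm9, by 25.7%, and the outer membrane receptor Tomm70a, by 30.1%. None of the 8 genes that act at the inner membrane itself was called, while 4 of them had an unadjusted p under 0.05 in edgeR and 0 were called by DESeq2. The median log2 fold change was -0.13 over the 14 TIM genes and also -0.13 over the 8 TOM genes, beside 0.01 over all genes tested. In 13 of the 22 genes both surgery mice lay below both control mice and in 6 they lay above, where 32.2% and 33.2% of all genes tested did so.

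**Figure D1:**
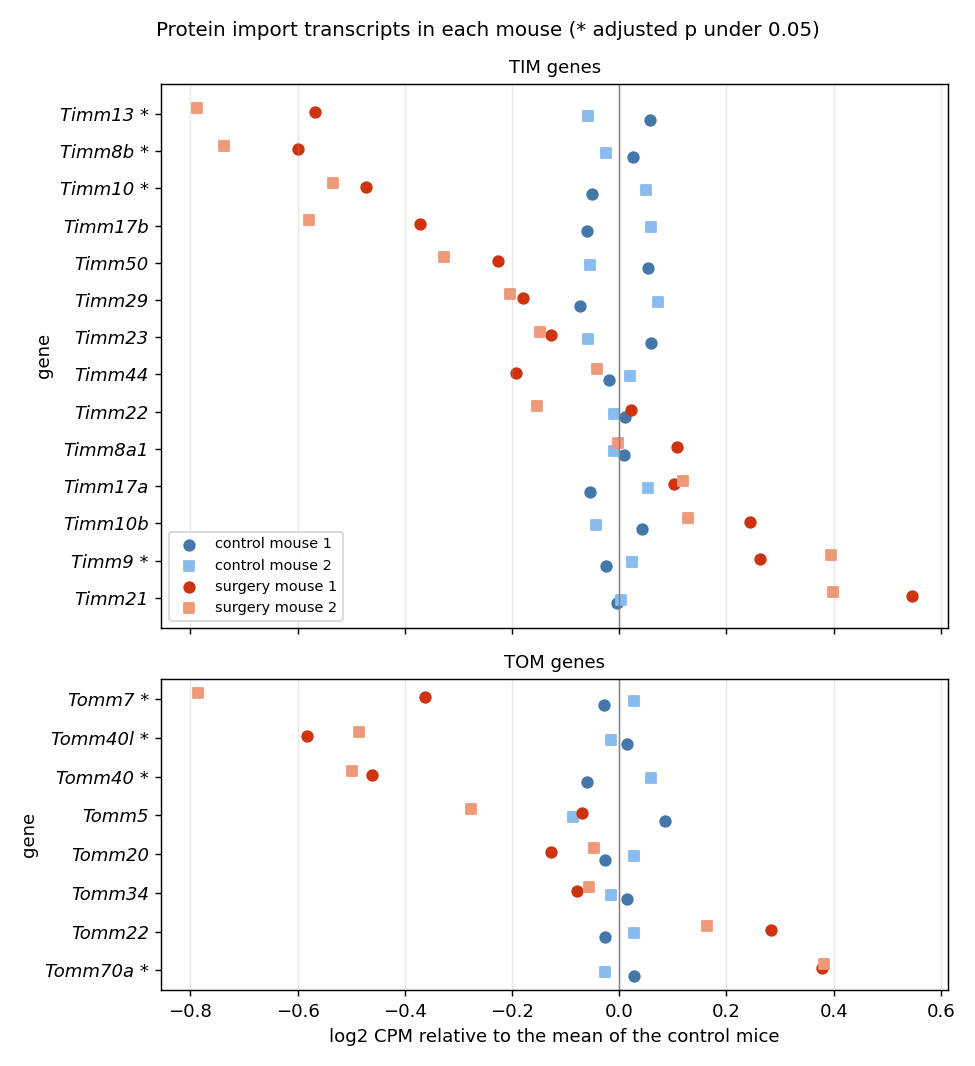
CPM of each tested TIM gene (upper panel) and TOM gene (lower panel) in each of the 4 mice, as log2 over the control mean, with asterisks on genes called at an adjusted p under 0.05. For Timm13, Timm8b, Timm10, Tomm7, Tomm40l and Tomm40 both surgery mice lie to the left of the control mice, and for Timm9 and Tomm70a both lie to the right.

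The small TIM proteins form soluble hexamers in the intermembrane space that shield the hydrophobic stretches of membrane proteins on their way from the TOM channel. TIMM8B and TIMM13 belong to the TIM8-TIM13 type of hexamer, and TIMM9 and TIMM10 make up the TIM9-TIM10 type. Timm13 (ENSMUSG00000020219, chr10:80899450-80900969, minus strand, mm10) stood at 54.3 and 50.1 CPM in the control mice, against 35.2 and 30.2 CPM in the surgery mice. The groups did not overlap, and its log2 fold change was -0.67 (SE 0.10, adjusted p = 0.00695 from edgeR). Timm8b (ENSMUSG00000039016, chr9:50603910-50605320, plus strand) stood at 55.7 and 53.8 CPM in controls, against 36.1 and 32.8 CPM after surgery. Again no surgery mouse reached a control mouse, and the log2 fold change was -0.67 (SE 0.09, adjusted p = 0.00517). These were the only 2 import genes that also passed the fold change limit of 0.67 that the study sets for a differentially expressed gene, a mark reached on the lower side by 2.25% of all genes tested, and Tomm7 lay just outside it at a fold of 0.678. Part of Timm13 lies opposite exons of Tmprss9 and part of Timm8b opposite exons of Nkapd1, and whether counting used the strand was not given in the sources used here.

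Timm10 (ENSMUSG00000027076, chr2:84826997-84830213, plus strand) stood at 18.1 and 19.4 CPM in the control mice and at 13.5 and 12.9 CPM in the surgery mice. Both surgery mice were low, with a log2 fold change of -0.50 (SE 0.12, adjusted p = 0.0257), and the call was lost without control mouse 2 (adjusted p = 0.115), without surgery mouse 2 (adjusted p = 0.0912) and in DESeq2 (adjusted p = 0.0513). Its partner Timm9 (ENSMUSG00000021079, chr12:71123173-71136684, minus strand) went the other way, from 27.5 and 28.4 CPM in the control mice to 33.5 and 36.8 CPM in the surgery mice. The rise was smaller than the falls, with a log2 fold change of 0.33 (SE 0.09, adjusted p = 0.0451), and the call was lost whichever mouse was left out, where adjusted p ran from 0.0581 to 0.189. Timm9 shares exon sequence on the opposite strand with Tomm20l, which had at most 7 counts in any mouse.

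The ratio of Timm9 to Timm10 counts within a library does not depend on the scaling between libraries. It was 1.52 and 1.47 in controls, against 2.49 and 2.85 after surgery, so that the mean ratio of the surgery mice was 1.78 times that of the control mice (SD 0.255 and 0.039, n = 2 each). The transcripts of the 2 hexamer partners were thus further apart in both surgery mice. The ratio of Timm8b to Timm13 was 1.03 and 1.07 in controls, against 1.03 and 1.09 after surgery. Here the groups overlapped, with means of 1.05 ± 0.034 and 1.06 ± 0.042. With 2 mice against 2, an exact permutation test cannot give a p below 0.333, and the ratios are given as a description. The 10 pairs examined were chosen after the values were seen. Among them, the ratio of Tomm70a to Tomm40 was 2.13 and 1.89 in controls, against 3.59 and 3.69 after surgery. Ratios of counts keep the trends over transcript length and GC content, and with those trends removed in each library Timm9 and Timm10 had log2 fold changes of 0.10 and -0.45, while Tomm70a and Tomm40 had -0.17 and -0.15. Timm8b and Timm13 then had -0.75 and -0.41.

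**Figure D2:**
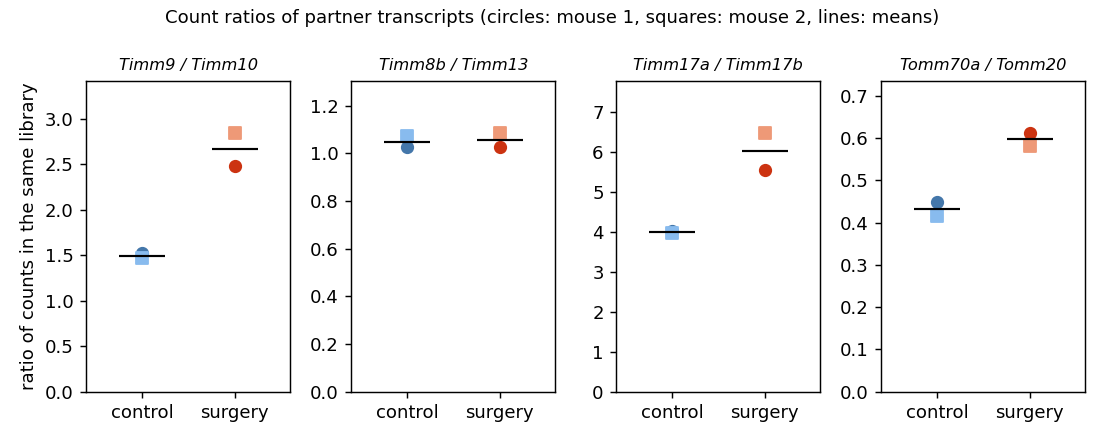
Ratio of the counts of pairs of import genes in each mouse, with lines at the group means. Timm9 over Timm10, Timm17a over Timm17b and Tomm70a over Tomm20 lie higher in both surgery mice, while Timm8b over Timm13 overlaps between the groups. The counts are not adjusted for length or GC content. With those trends removed, Tomm70a and Tomm20 stand at -0.17 and -0.37 on the log2 scale.

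The other small chaperone genes were not called. Timm8a1, which encodes the chaperone altered in the deafness and dystonia syndrome of Mohr and Tranebjaerg, stood at 6.21 and 6.13 CPM in the control mice, against 6.65 and 6.16 CPM in the surgery mice. The groups overlapped, and 39.9% of the 75-nucleotide windows of its transcript also occur in another gene, so its count is uncertain. Timm10b, which ties the small chaperones to the TIM22 complex, stood at 4.47 and 4.21 CPM in controls, against 5.14 and 4.74 CPM after surgery. Its log2 fold change of 0.19 (SE 0.20) did not pass the test (adjusted p = 0.545), and 15.3% of its windows are shared with other genes. Timm8a2 was at 0 and 4 counts in controls, against 0 in both surgery mice, where a count of 0 allows up to 0.188 CPM (3 counts, counting error only), and it was not tested.

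The promoters of the 4 called small chaperone genes are shown because all calls among the TIM genes fell on them. Each runs 5′ to 3′ on the strand of its gene from 250 bases before to 50 bases after the start in RefSeq (GRCm38.p6, the assembly of mm10). Capitals mark letters that match a motif of a factor known to act on nuclear genes for mitochondrial proteins, searched on both strands: NRF-1 (GCGCANGCG), GABP (CCGGAAG), ERR alpha (TCAAGGTCA) and YY1 (AAGATGGCG).
Timm8b chr9:50603651-50603950 (plus strand): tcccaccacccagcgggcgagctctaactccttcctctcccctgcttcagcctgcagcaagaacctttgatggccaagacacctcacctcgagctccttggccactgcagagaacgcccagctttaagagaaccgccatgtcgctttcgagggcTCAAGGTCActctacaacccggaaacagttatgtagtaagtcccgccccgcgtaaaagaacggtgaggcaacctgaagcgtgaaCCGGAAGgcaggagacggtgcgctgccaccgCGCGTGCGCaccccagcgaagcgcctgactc
Timm13 chr10:80900920-80901219 (minus strand): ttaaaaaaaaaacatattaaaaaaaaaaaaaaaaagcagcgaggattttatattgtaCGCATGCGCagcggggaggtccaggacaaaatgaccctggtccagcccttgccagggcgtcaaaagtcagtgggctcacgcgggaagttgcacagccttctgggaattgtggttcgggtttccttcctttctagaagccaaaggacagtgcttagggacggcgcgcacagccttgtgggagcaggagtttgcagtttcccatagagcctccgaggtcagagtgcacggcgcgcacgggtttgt
Timm10 chr2:84826771-84827070 (plus strand): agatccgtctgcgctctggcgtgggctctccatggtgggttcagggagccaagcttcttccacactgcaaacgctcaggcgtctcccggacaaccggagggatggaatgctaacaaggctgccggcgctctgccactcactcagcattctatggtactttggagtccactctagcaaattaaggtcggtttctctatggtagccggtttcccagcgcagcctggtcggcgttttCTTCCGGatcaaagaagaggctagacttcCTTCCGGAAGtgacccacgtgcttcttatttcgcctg
Timm9 chr12:71136626-71136925 (minus strand): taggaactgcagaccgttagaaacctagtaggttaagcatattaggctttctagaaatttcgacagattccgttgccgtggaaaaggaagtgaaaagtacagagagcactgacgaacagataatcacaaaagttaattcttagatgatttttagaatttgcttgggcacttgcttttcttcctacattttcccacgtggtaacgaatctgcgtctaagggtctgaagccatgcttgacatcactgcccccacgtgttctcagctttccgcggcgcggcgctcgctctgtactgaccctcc
The Timm8b window held 1 match each of NRF-1, GABP and ERR alpha. The Timm13 window held 1 NRF-1 match, and the Timm10 window held 3 GABP matches, of which 2 overlap each other on opposite strands. In the Timm9 window none of the 4 motifs was found, which says only that these letters are absent from it. Of the called TOM genes, the window of Tomm70a, which rose, held 2 GABP matches. That of Tomm40, which fell, held no match of the 4 motifs. Tomm7 and Tomm40l, which also fell, had no promoter entry and were not searched. Over the 21 members with an entry in the promoter table, NRF-1 was found for 3, GABP for 9, ERR alpha for 1 and YY1 for 1. Of all 32851 promoters of that length, 6.25% held the NRF-1 letters, 8.86% those of GABP, 0.423% those of ERR alpha and 1.40% those of YY1. A match is a description of the letters and not evidence that a factor binds there.

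TIMM23, TIMM17A and TIMM17B form the core of the presequence translocase, with TIMM50 as its receptor and TIMM44 as the anchor of the import motor. Timm23 stood at 51.8 and 47.7 CPM in the control mice and at 45.5 and 44.9 CPM in the surgery mice, with a log2 fold change of -0.14 (adjusted p = 0.255). Of its windows, 52.1% are shared with 8 other genes, so reads may have been divided among them. Timm17b stood at 13.2 and 14.4 CPM in the control mice, against 10.7 and 9.24 CPM in the surgery mice, without overlap, but its log2 fold change of -0.47 (SE 0.15) missed the threshold (adjusted p = 0.0579). Timm17a stood at 53.1 and 57.2 CPM in controls, against 59.2 and 59.8 CPM after surgery, with a log2 fold change of 0.11 (adjusted p = 0.334) that became -0.27 once length and GC trends were removed. The ratio of Timm17a to Timm17b counts was 4.01 and 3.98 in controls, against 5.55 and 6.47 after surgery, so both surgery mice were high. With length and GC trends removed, both paralogs lay below 0, Timm17a at -0.27 and Timm17b at -0.42 on the log2 scale.

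Timm50 stood at 28.8 and 26.7 CPM in the control mice and at 23.7 and 22.1 CPM in the surgery mice (log2 fold change -0.28, adjusted p = 0.0927), and its log2 fold change was -0.01 (adjusted p = 0.983) with length and GC trends removed. Timm44 stood at 61.5 and 63.2 CPM in the control mice, against 54.6 and 60.6 CPM in the surgery mice (log2 fold change -0.11, adjusted p = 0.343). Timm21, whose product links TIM23 to the TOM complex and the respiratory chain, stood at 8.65 and 8.70 CPM in controls, against 12.7 and 11.4 CPM after surgery. Both surgery mice were higher by a log2 fold change of 0.47 (SE 0.15), which did not pass the threshold (adjusted p = 0.058), and it stood at 0.00 (adjusted p = 0.999) when length and GC trends were removed. Timm21 was called higher with library totals (adjusted p = 0.0433) and with a minimum count of 50 (adjusted p = 0.0399). Timm22, the channel of the carrier translocase, overlapped between the groups, at 17.6 and 17.3 CPM in the control mice and at 17.7 and 15.7 CPM in the surgery mice. Timm29, another subunit of the carrier translocase, stood at 77.6 and 85.7 CPM in the control mice, against 72.0 and 70.8 CPM in the surgery mice (log2 fold change -0.19, adjusted p = 0.114). With 2 mice in each group, differences of this size that miss the threshold do not show that the transcripts were alike.

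At the outer membrane, TOMM20 and TOMM22 are the receptors for presequences, TOMM70 (gene Tomm70a) is the receptor for carrier precursors that arrive bound to HSP70 and HSP90, TOMM40 is the channel, and TOMM5 and TOMM7 are small subunits around it. Tomm40 (ENSMUSG00000002984, chr7:19701313-19715438, minus strand) stood at 61.8 and 67.2 CPM in controls, against 46.8 and 45.6 CPM after surgery. It fell by 0.48 on the log2 scale (SE 0.08, adjusted p = 0.00833), and 4.02% of its windows are shared with Gm20512 on the opposite strand. Its paralog Tomm40l (ENSMUSG00000005674, chr1:171216011-171222514, minus strand) stood at 19.4 and 19.0 CPM in the control mice and at 12.9 and 13.7 CPM in the surgery mice. Its log2 fold change was -0.53 (SE 0.12, adjusted p = 0.0205), and 52.0% of its windows also lie in Nr1i3 on the opposite strand, so the 2 genes cannot be told apart there without strand. The Tomm40l call was lost without control mouse 1 (adjusted p = 0.0635), control mouse 2 (adjusted p = 0.0662) or surgery mouse 1 (adjusted p = 0.0556). The ratio of Tomm40l to Tomm40 counts overlapped between the groups, with means of 0.299 ± 0.022 in the control mice and 0.288 ± 0.019 in the surgery mice (SD, n = 2 each), while with length and GC trends removed Tomm40l and Tomm40 stood at -0.46 and -0.15 on the log2 scale.

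Tomm7 (ENSMUSG00000028998, chr5:23838944-23844161, minus strand) stood at 25.8 and 26.9 CPM in the control mice, against 20.5 and 15.3 CPM in the surgery mice. Both surgery mice were low, the second by more, and the log2 fold change was -0.56 (SE 0.15, adjusted p = 0.039). It was -0.36 without surgery mouse 2 (adjusted p = 0.121) and -0.80 without surgery mouse 1 (adjusted p = 0.00702). The call was also lost without control mouse 1 (adjusted p = 0.0632), without control mouse 2 (adjusted p = 0.105) and with no filter on low counts (adjusted p = 0.0931). Tomm5, the other small subunit measured, overlapped between the groups, at 25.2 and 22.4 CPM in controls, against 22.6 and 19.6 CPM after surgery.

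Of the receptors, Tomm70a (ENSMUSG00000022752, chr16:57121714-57154530, plus strand) stood at 132 and 127 CPM in the control mice and at 168.1 and 168.6 CPM in the surgery mice. It rose by 0.38 on the log2 scale (SE 0.06, adjusted p = 0.00738), a direction that turned to -0.17 (adjusted p = 0.22) when length and GC trends were removed. Tomm20 stood at 294 and 305 CPM in the control mice, against 274 and 290 CPM in the surgery mice (log2 fold change -0.09, adjusted p = 0.332). The ratio of Tomm70a to Tomm20 counts was 0.448 and 0.416 in controls, against 0.612 and 0.582 after surgery, and with length and GC trends removed Tomm70a and Tomm20 stood at -0.17 and -0.37 on the log2 scale. Tomm22 stood at 36.5 and 37.9 CPM in controls, against 45.2 and 41.6 CPM after surgery (log2 fold change 0.22, adjusted p = 0.104), and its log2 fold change was -0.02 (adjusted p = 0.928) with length and GC trends removed. Tomm34, a cytosolic cochaperone of HSP70 and HSP90, stood at 110 and 107 CPM in the control mice and at 103 and 104 CPM in the surgery mice (log2 fold change -0.07, adjusted p = 0.46). With length and GC trends removed, Tomm34 stood at 0.13 (adjusted p = 0.351). Tomm20l, a Tomm20 paralog, had 2 and 7 counts in controls, against 1 and 5 after surgery and was not tested.

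Levels can be set beside each other between genes only per length of transcript. In the control mice the highest level was that of Timm8b, at 105.6 ± 2.58 CPM per kilobase (SD, n = 2), followed by Tomm20 at 61.1 ± 1.64. Timm13 at 42.6 ± 2.40 and Timm23 at 42.4 ± 2.46 CPM per kilobase did not differ beyond their spread, nor did Tomm40 at 39.2 ± 2.30 and Tomm5 at 37.2 ± 3.12. In the surgery mice Timm8b stood at 66.5 ± 4.49 and Tomm20 at 57.6 ± 2.22 CPM per kilobase, so these levels lay closer together. At the low end of the tested genes in the control mice were Timm8a1 at 4.34, Tomm40l at 4.08, Timm21 at 3.59 and Timm10b at 1.33 CPM per kilobase, and the untested Tomm20l and Timm8a2 lay lower still. Of the genes that fell, Timm8b and Timm13 were therefore among the most abundant import transcripts and Tomm40l among the scarcest that were tested.

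The fold changes of the import genes followed the GC content of their transcripts, as those of all genes did. Across the 22 import genes Spearman's rho between the log2 fold change and the GC content of the principal transcript was -0.66, and across all 17120 tested genes with a transcript sequence it was -0.65. These are descriptions across genes of the same 4 libraries, and genes are not independent replicates. Tomm40 and Timm13, which fell, have 61.5% and 58.2% GC, and Tomm70a and Timm9, which rose, have 40.7% and 46.4% GC. Tomm7 at 44.0% GC and Timm8b at 49.8% GC also fell, and their log2 fold changes lay further below 0 once the trend was removed. What set the trend over GC was not tested.

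**Figure D3:**
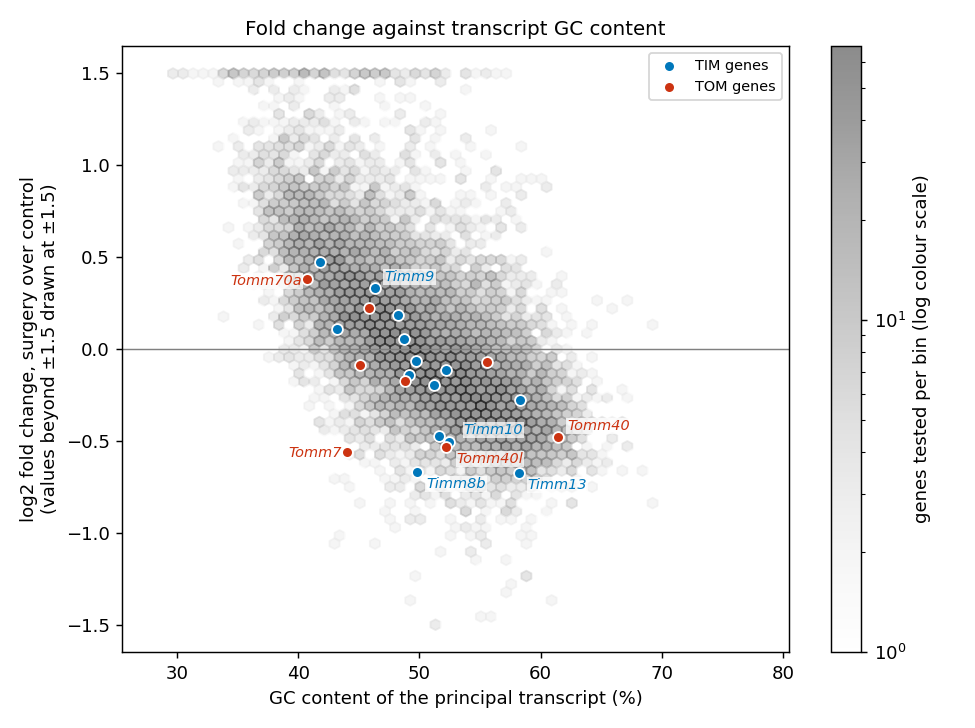
Log2 fold change, surgery over control, against the GC content of the principal transcript for all tested genes (grey bins, log colour scale) and for the import genes (points). Tomm70a at 40.7% GC lies above 0, Tomm40 at 61.5% GC lies below it, and Tomm7 at 44.0% GC lies below the densest bins of like GC content.

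When smooth trends over transcript length and GC content were removed in each library, 3 of the 22 import genes were called lower and none higher, where 1.04% of all genes tested were called lower and 0.612% higher. In that edgeR fit 0 of the 22 had a positive log2 fold change with an unadjusted p under 0.05, and DESeq2 without that step called 6 of the 22. Timm8b kept its call with a log2 fold change of -0.75 (adjusted p = 0.0283), as did Tomm7 with -0.91 (adjusted p = 0.0497). Tomm20 became called at -0.37 (adjusted p = 0.0484). Timm13 at -0.41, Timm10 at -0.45, Tomm40l at -0.46 and Tomm40 at -0.15 stayed below 0 but lost their calls, with adjusted p from 0.102 to 0.343, and Timm9 lost its call at 0.10 (adjusted p = 0.608). Over all alternatives the adjusted p ran from 1.39e-05 to 0.0283 for Timm8b, from 0.0052 to 0.121 for Tomm7, from 0.0307 to 0.608 for Timm9, from 0.000181 to 0.22 for Tomm70a and from 0.00352 to 0.675 for Tomm20. The median log2 fold change was then -0.13 over the TIM genes and -0.23 over the TOM genes, beside -0.04 over all genes tested.

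**Figure D4:**
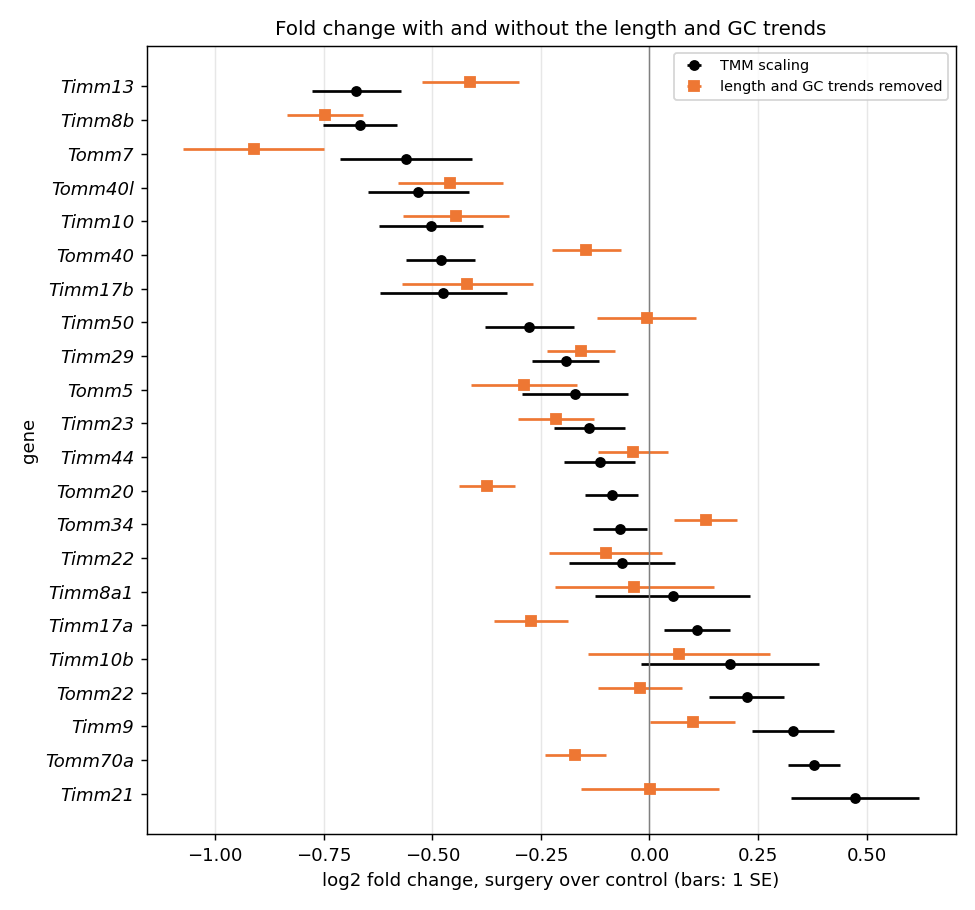
Log2 fold change with 1 SE for each tested import gene, with TMM scaling (black circles) and after trends over transcript length and GC content were removed (orange squares). Timm8b stays near -0.7 in both, Tomm40 moves from -0.48 to -0.15, and Tomm70a crosses from 0.38 to -0.17.

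The 34 partner genes of import, in 7 lists by role, gave 7 genes called lower and 4 called higher, beside 12.8% and 13.1% of all genes tested, with a median log2 fold change of -0.02. With length and GC trends removed, 1 was called lower in edgeR, Grpel1, and none higher, with 1 higher at an unadjusted p under 0.05, beside 1.04% lower and 0.612% higher of all genes tested. DESeq2 without that step called 11 of the 34. Among the 8 partners of the TIM23 channel and its motor, Romo1, a small protein tied to the channel, fell from 22.8 and 22.3 CPM in the control mice to 15.4 and 12.4 CPM in the surgery mice (log2 fold change -0.70, SE 0.14, adjusted p = 0.0138). With length and GC trends removed, Romo1 stood at -0.42 (adjusted p = 0.136). Grpel1, the nucleotide exchange factor of the mitochondrial HSP70 motor, fell from 37.8 and 40.6 CPM to 30.7 and 29.7 CPM (log2 fold change -0.38, adjusted p = 0.0247). The call was lost with no filter on low counts (adjusted p = 0.0576). Leaving out 1 mouse gave log2 fold changes from -0.43 to -0.33. Grpel1 stood at -0.55 (adjusted p = 0.0486) with length and GC trends removed. Its paralog Grpel2 stood at 22.2 and 21.1 CPM in the control mice, against 22.9 and 25.8 CPM in the surgery mice (adjusted p = 0.301).

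Of the 7 peptidases, Pmpca, a subunit of the enzyme that cuts off presequences, fell by 0.35 on the log2 scale (adjusted p = 0.0172), and Immp1l, of the inner membrane peptidase, had a log2 fold change of 0.60 that did not pass (adjusted p = 0.0685). The value for Immp1l was 0.88 without control mouse 1, 0.35 without control mouse 2, and -0.09 (adjusted p = 0.818) with length and GC trends removed. With a replicate block in edgeR, Immp1l was called higher at 0.61 (adjusted p = 0.0363). None of the 3 genes of the disulfide relay that folds small TIM proteins was called with TMM scaling in edgeR or in DESeq2, and 1 had an unadjusted p under 0.05 in edgeR. There Chchd4, the oxidoreductase of the relay, stood at 29.1 and 31.2 CPM in controls, against 25.5 and 23.1 CPM after surgery (log2 fold change -0.31, adjusted p = 0.0655), and Aifm1 had a log2 fold change of 0.04. For Chchd4 the log2 fold change was -0.55 (adjusted p = 0.0633) with length and GC trends removed, and it was called when a replicate block was added to that fit (adjusted p = 0.0127). Among the 6 genes of outer membrane sorting and insertion, Mtch1, a relative of the outer membrane insertase MTCH2, fell from 432 and 444 CPM to 301 and 284 CPM (log2 fold change -0.58, SE 0.06, adjusted p = 0.00446). Of the metaxins, Mtx1 fell by 0.51 (adjusted p = 0.0206) and Mtx3 rose by 0.43 (adjusted p = 0.0167) on the log2 scale, the latter turning to -0.01 when length and GC trends were removed.

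Of the 3 genes for insertion from the matrix, Letm1, an inner membrane protein that also binds mitochondrial ribosomes, fell by 0.29 (adjusted p = 0.0228), and Cox18 had a log2 fold change of -0.01. The 2 subunits of the matrix folding chaperonin moved apart. Hspd1 rose from 111 and 113 CPM in the control mice to 149 and 141 CPM in the surgery mice (log2 fold change 0.37, SE 0.06, adjusted p = 0.00937). Its lid Hspe1 fell from 50.7 and 49.7 CPM to 41.3 and 33.95 CPM (log2 fold change -0.42, SE 0.11, adjusted p = 0.0343). The log2 fold change of Hspe1 ran from -0.58 to -0.28 when 1 mouse was left out. Of the 5 cytosolic chaperones that bring precursors to TOM, Dnaja1, a cochaperone of HSP70, rose from 174 and 166 CPM to 278 and 251 CPM (log2 fold change 0.64, SE 0.07, adjusted p = 0.00453). Hsp90aa1, the inducible HSP90, rose by 0.42 on the log2 scale (adjusted p = 0.0224), and by 0.27 to 0.54 when 1 mouse was left out. The constitutive Hsp90ab1 had a log2 fold change of -0.16 (adjusted p = 0.128). With length and GC trends removed, Dnaja1 stood at 0.12, Hspd1 at 0.19 and Hsp90aa1 at 0.06 on the log2 scale, and none of these was called. Mtx1 then stood at -0.17, Mtch1 at -0.25, Hspe1 at -0.39, Letm1 at -0.18 and Pmpca at -0.45, also without a call.

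**Figure D5:**
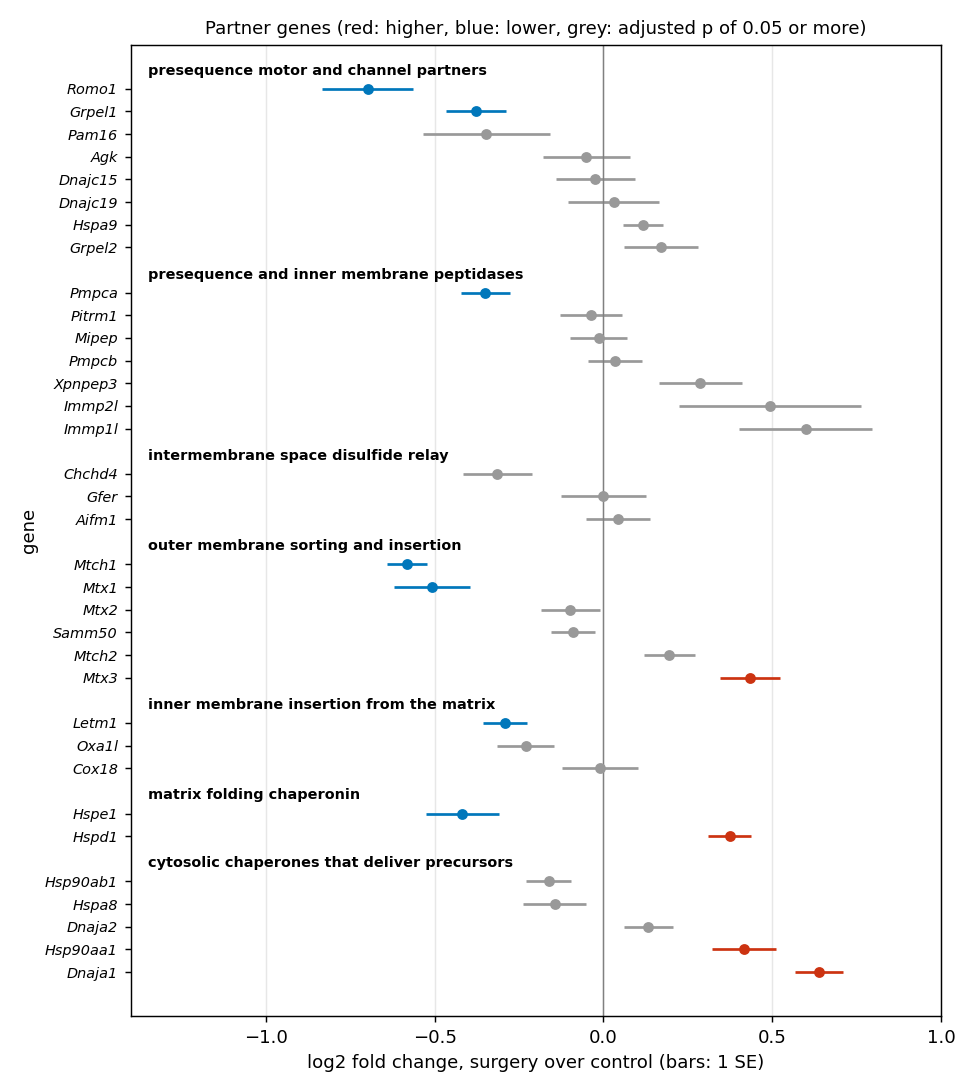
Log2 fold change with 1 SE of the 34 partner genes of import, grouped by role. Romo1 and Mtch1 lie lowest at -0.70 and -0.58, Dnaja1 lies highest at 0.64, and Hspd1 and Hspe1 lie on opposite sides of 0.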

How the data were processed

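The authors prepared poly(A)-selected libraries, sequenced them as 150-nucleotide read pairs, and mapped them to mm10 with HISAT. The submitters' processing notes name HISAT2 2.1.0, HTSeq 0.6.0, Bowtie2 2.2.3 and TopHat2 without roles. The deposited table holds whole-number counts per gene for each of the 4 mice, 15763432 to 18573386 per library. It also holds the authors' own fold changes and p-values, which were not used. Genes were kept by edgeR 4.0.16 (R 4.3.3) with a minimum count of 10, scaled by TMM and tested with condition as the only term in its quasi-likelihood fit. Spread was estimated jointly over genes, since each group has 2 mice, and p-values rest on that estimate. They were adjusted by Benjamini-Hochberg. Transcript length and GC content came from the principal transcript of each gene, and their trends were modelled with mgcv 1.9.3. Every member was named, with each partner gene called and the extremes of each partner list. Alternatives were DESeq2 1.42.0 and its size factors, library totals, other count minimums, thinned counts, no mitochondrial genome, a replicate block, length and GC offsets, and each mouse left out. Members and lists were chosen with earlier results of these data known. The fit was also run on simulated counts, and the outcome is not reported here.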

Additional observations from a re-analysis of the deposited data

How the results depend on the processing

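The 2 groups share replicate numbers 1 and 2, but nothing says that a number marks a shared litter or day, and with 2 pairs the deviations correlated at r = 0.22 across genes. With a replicate block, TIM genes gave 1 call higher and 3 lower, TOM genes 1 and 3, partner genes 5 and 7, and all genes 5281 calls, beside 4449 without it. All 8 calls of import genes held with the block. The TIM genes called higher (1) became 0 with DESeq2, no filter, length and GC offsets, or the block with those offsets, and 2 with library totals or a minimum count of 50. The TIM genes called lower (3) became 2 with DESeq2, 1 with offsets and 4 in the block with offsets, where Timm13 (adjusted p = 0.0119) and Timm10 (adjusted p = 0.0457) were called. The median log2 fold change of TIM genes (-0.13) was -0.14 with DESeq2, its size factors or no filter, -0.079 with library totals, -0.10 with the minimum of 50, -0.13 with offsets alone or with the block, and -0.12 with thinned counts. TOM genes called higher (1) became 0 with offsets, alone or with the block, and their median moved from -0.13 to -0.23 in both and to -0.082 with library totals. Partner calls (4 higher, 7 lower) became 2 and 4 with no filter, 0 and 1 with offsets, and 0 and 8 in the block with offsets. Without 1 mouse, TIM genes gave 0 calls higher, 2 to 3 lower and medians of -0.17 to -0.11, TOM genes 1 to 2 lower and medians of -0.18 to -0.10, and partners 3 to 5 higher and 2 to 9 lower. Timm13, Timm8b, Tomm40 and Tomm70a kept their calls without any 1 mouse. Tomm70a reversed to -0.17 with offsets, alone or with the block, Mtx3 to -0.0097 and -0.0106, and Timm17a to -0.27 and Dnaja2 to -0.29 in both, with calls in the block with offsets (adjusted p = 0.0496 and 0.0107). The cause of these moves was not tested, and fits without a mouse have fewer samples. All-gene calls were 2665 with no filter, 284 with offsets, 2375 in the block with offsets, 2408 without control mouse 2 and 2933 without surgery mouse 2. The filter on low counts kept Timm8a2 and Tomm20l out of the test.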

Other observations

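For 7 import genes, a gene read the other way starts within 1000 nucleotides, and 3 of these 7 neighbours were called lower in the surgery mice, where 12.8% of all genes tested were. The neighbour of Timm8b is Sdhd, which encodes an anchor subunit of respiratory complex II, and the starts lie 98 nucleotides apart. Sdhd fell from 87.0 and 87.9 CPM in the control mice to 63.2 and 61.3 CPM in the surgery mice, a log2 fold change of -0.49 (SE 0.07, adjusted p = 0.00569 from edgeR). With length and GC trends removed, its log2 fold change was -0.55 (adjusted p = 0.035), so both genes of this pair stayed called. Yipf2, whose start lies 106 nucleotides from that of Timm29 and whose exons overlap it, fell by 0.79 on the log2 scale (adjusted p = 0.0177), while Timm29 itself was not called. With length and GC trends removed, Yipf2 lost its call at -0.61 (adjusted p = 0.112). Arfip2, 360 nucleotides from Timm10b, fell by 0.30 on the log2 scale (adjusted p = 0.0251), and it shares sequence with Timm10b on the opposite strand. With those trends removed, Arfip2 lost its call at -0.23 (adjusted p = 0.154). The neighbours of Timm23, Timm17b, Timm9 and Tomm34 were not called. These neighbours were looked up after the values of the import genes were seen.

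The 77 genes for mitochondrial ribosomal proteins, whose products also depend on import, gave 14 calls lower and 4 higher, beside 12.8% and 13.1% of all genes tested, with a median log2 fold change of -0.09. With length and GC trends removed, 2 were called lower and none higher in edgeR, with 1 higher at an unadjusted p under 0.05, beside 1.04% and 0.612% of all genes tested. DESeq2 without that step called 14 of the 77.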
